A study of Mus musculus with 16 samples.

Results

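Axon guidance ligands and receptors are described here across wild-type and Fmr1-mutant neural stem cells. The members are the genes whose symbols name a semaphorin of classes 3 to 7, a plexin, a neuropilin, an Eph receptor, an ephrin, a Slit, a Robo, a netrin or an Unc5 receptor. They were chosen by symbol alone, and 68 of the 20409 genes in the count table met the rule (35 ligands and 33 receptors). The cells were neural stem cells of the adult dentate gyrus, isolated from male mice of the FVB/N strain aged 8 to 10 weeks and kept in culture. They were either wild type (WT) or, from littermates, Fmr1-/y (KO), the latter lacking the X-linked gene for the RNA-binding protein FMRP. Cultures of both genotypes received the growth factors EGF and FGF2 (20 ng/ml each). For the last 10 min they also received cycloheximide (100 µg/ml), an inhibitor that holds ribosomes on the mRNA. Each genotype had 4 cultures of separately isolated cells, and each culture gave a cytoplasmic RNA library and, from the same lysate, a library of ribosome footprints (mRNA fragments that ribosomes shield from nuclease), 16 libraries in all. The footprint libraries of replicates 1 and 2 carried molecular identifiers of 5 nt and those of replicates 3 and 4 of 8 nt, so the labels also split the cultures into these sets. The cultures hold precursor cells taken out of their tissue, so the circuits that guidance proteins act on are not present.

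Guidance proteins steer growing axons and migrating cells by attraction and repulsion. Semaphorins act on plexins, with neuropilins as co-receptors for secreted class 3 members; ephrins, which are held at the cell surface, act on Eph receptor kinases of neighbouring cells. Slits act on Robo receptors, and netrins on Dcc, neogenin and Unc5 receptors. In the dentate gyrus these systems are known for guiding mossy fibres and for placing and maintaining precursor cells. FMRP is known for binding many long mRNAs of neurons and for acting on their translation.

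Fmr1, the gene that the mutant lacks, was lower in KO than in WT in footprints of all libraries and in RNA of each same-numbered pair. Its footprints lay between 129 and 149 normalised CPM in the WT libraries and between 12.6 and 27.2 in the KO libraries (CPM, counts relative to the library total after TMM scaling within an assay). This was a log2 fold change of -2.93 (SE 0.22, edgeR quasi-likelihood adjusted p = 0.014). In a fit blocked on replicate number the change, again -2.93 (SE 0.25), did not pass (adjusted p = 0.143), nor did it in replicates 1 and 2 alone (adjusted p = 0.539) or without WT replicate 2, 3 or 4 or KO replicate 1 or 2 (adjusted p = 0.0564 to 0.121). In RNA, Fmr1 had 41.2, 104, 37.5 and 27.4 CPM in WT 1 to WT 4 and 8.69, 30.4, 10.8 and 3.36 CPM in KO 1 to KO 4. The RNA groups overlapped, since KO 2 lay above WT 4, with a change of -1.99 (SE 0.67) that did not pass (adjusted p = 1). Markers of neural stem and progenitor cells summed to between 7990 and 16800 CPM in every library. By group mean Vim was the most abundant of them in WT RNA and in footprints of both genotypes, and Nes in KO RNA. Microglial markers summed to at most 1.31 CPM, with Cx3cr1 and Aif1 at 0 in every group. Oligodendrocyte lineage markers, led by Olig1, summed to 1110 to 2140 CPM, astrocyte markers to 475 to 3250 CPM and neuronal markers, led by Map2, to 290 to 2090 CPM. RNA libraries held 5343042 to 6600023 counts and footprint libraries 9430732 to 17220236, and 56 to 65 members had a count in a library.

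Neural stem cells held a narrow set of abundant guidance RNAs and a long tail of rare ones. Over the 8 RNA libraries, 44 members averaged at least 1 TPM (a transcript level per length, relative to the library), 29 at least 10 TPM and 6 at least 50 TPM. The share at 10 TPM was 42.6% of members and 43.8% of all genes. Ntn1, which encodes netrin-1, was the most abundant with a mean of 325 TPM (253 to 422 over the 8 libraries), at the 97.6th percentile of all genes. Plxnb2, a plexin that binds class 4 semaphorins, followed with 279 TPM (224 to 323), and the ranges of the pair overlapped. Next came the transmembrane semaphorins Sema6a (141 TPM, 75 to 193), Sema4b (105, 42 to 192) and Sema6d (94.5, 47 to 161), whose ranges also overlapped each other. No range of these 3 reached the lowest value of Plxnb2. Plxna1, Plxnd1, Plxnb1, Ntn4 and Ephb3 then lay between 50.2 and 38.1 TPM. Plxnb2 held 29.1% of all member RNA counts and 17.6% of member footprint counts, and Ntn1 9.95% and 12.8%.

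By family, plexin RNA summed to 501 TPM (462 to 560 over the libraries) and netrin RNA to 377 TPM (333 to 454). Class 6 semaphorins summed to 247 TPM, class 4 to 153 TPM and the EphB receptors to 111 TPM. Secreted class 3 semaphorins, led by Sema3a, summed to 31.5 TPM, the ephrin-A and ephrin-B families to 38.6 and 38 TPM, Robo receptors to 33.5 TPM and Unc5 receptors to 34.9 TPM. EphA receptors reached 24.6 TPM and neuropilins 21.8 TPM. Slits were lowest at 1 TPM (0 to 2), so the Robo ligands were nearly undetected in cells that held Robo1 (15.6 TPM) and Robo2 (17.9 TPM). In footprints the order of the families differed little at the top, with netrins at 165 TPM, plexins at 115 TPM and class 6 semaphorins at 101 TPM. Fewer members than genes in general reached 10 TPM in footprints, 20.6% against 37.3%.

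**Figure D1:**
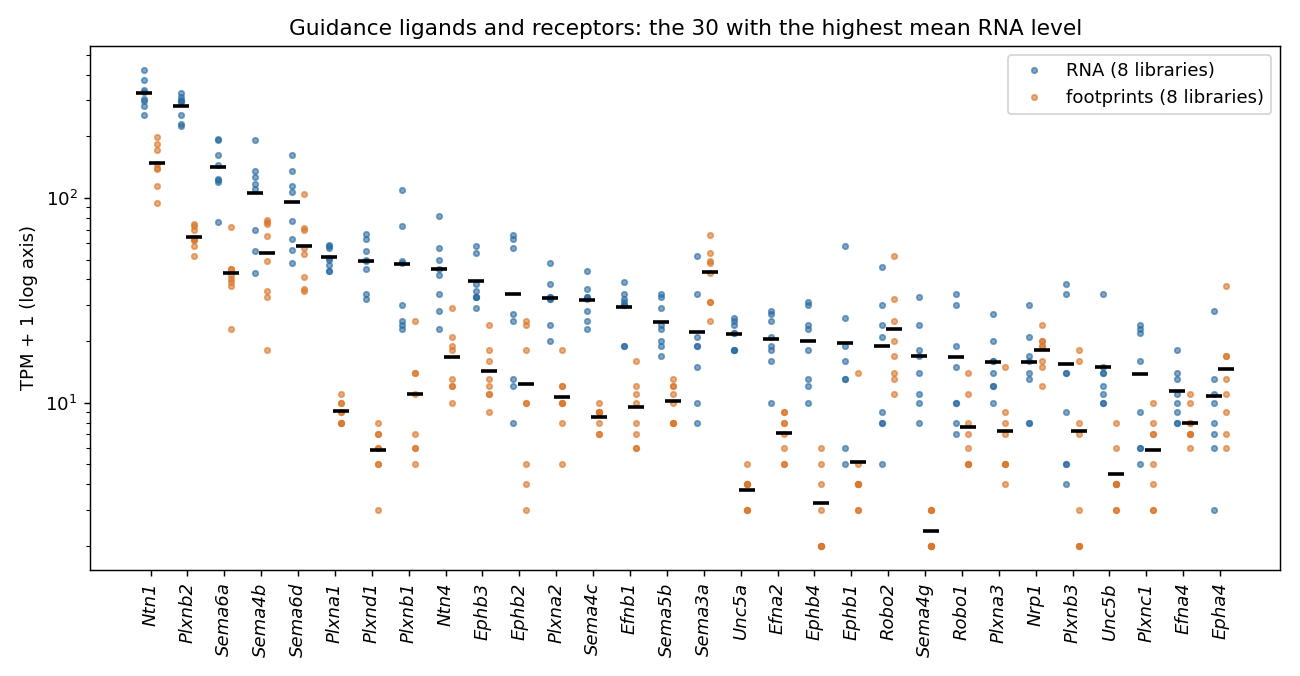
Levels (TPM + 1, log axis) of the 30 members with the highest mean RNA level; each point is 1 library, 8 for RNA (blue) and 8 for footprints (orange), and the black bars mark the means. Ntn1 and Plxnb2 stand highest in RNA, and for most members the footprint points lie below the RNA points, Sema3a being an exception.

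Low counts kept 17 members out of every test, namely Efna1, Efna5, Efnb3, Epha1, Epha6, Epha8, Epha10, Ntn5, Robo3, Robo4, Sema3b, Sema3e, Sema3g, Sema4a, Sema4f, Slit3 and Unc5d. The RNA test took in 47 members of 11097 genes, the footprint test 51 of 11472, and tests across both assays 47 of 10863. Epha7, Sema3c, Sema3d and Unc5c entered in footprints alone. Together the members took 0.568% ± 0.0362 of WT and 0.57% ± 0.0383 of KO RNA counts, and 0.225% ± 0.0566 of WT and 0.219% ± 0.00918 of KO footprint counts (SD, n = 4 each), differences smaller than the spread between replicates.

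No member differed between the genotypes after adjustment for all genes tested. In RNA, edgeR's quasi-likelihood test passed 0 of 47 members at adjusted p 0.05, against 0.00901% of all genes, and DESeq2 and limma-voom also passed 0. In footprints edgeR and limma-voom passed 0 of 51 members, against 0.0349% of all genes by edgeR. DESeq2 passed 1 member, Unc5c, and 82 of the 11472 genes. In footprints relative to RNA (translational efficiency), all 3 tools passed 0 of 47, with 0% of all genes by edgeR. At an unadjusted p under 0.05, 4 RNA members stood out (8.51% of members, 1.87% of all genes), 6 footprint members (11.8% against 4.59%) and 0 in translational efficiency (0% against 0.129%). Without KO replicate 4 the RNA count was 2, and without WT replicate 3 the footprint count was 3. The median log2 fold change (KO over WT) of the members was -0.19 in RNA (14 positive, 33 negative) and -0.13 in footprints (18 positive, 33 negative), beside 0.01 over all genes in each. For translational efficiency it was 0.08 (30 positive, 17 negative), beside 0.01. In replicates 3 and 4 alone the medians were 0.04 in RNA and 0.14 in footprints, so the negative sign did not hold within that set. Without the KO footprint libraries 3 and 4, described below, the median was -0.30 in footprints and -0.19 in translational efficiency. Since the RNA is bulk, fewer cells of a type and less RNA per cell cannot be told apart in these values.

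Among ligands, Ntn3 had the smallest unadjusted p in RNA. Ntn3, which encodes netrin-3 (chromosome 17, 24203831 to 24209387, mm10), had 23, 16, 17.4 and 18.6 CPM in WT RNA and 3.07, 10.3, 6.37 and 9.15 CPM in KO RNA, replicates 1 to 4. Its footprints were 6.4, 5.15, 7 and 4.09 CPM in WT and 2.29, 3.17, 2.95 and 1.75 CPM in KO. All 4 KO values lay below all 4 WT values in both assays. The log2 fold changes were -1.37 in RNA (SE 0.38, unadjusted p = 0.00508, edgeR adjusted p = 1) and -1.16 in footprints (SE 0.30, unadjusted p = 0.0049, adjusted p = 0.703). Its translational efficiency had a value of 0.23 (SE 0.48). The negative sign held in all 17 alternatives run in RNA (-1.60 to -1.13) and all 19 in footprints (-1.30 to -0.68), and none passed the adjusted threshold. The far more abundant netrin gene Ntn1 (chromosome 11, 68209364 to 68386826) had mean RNA levels of 534 ± 155 CPM (WT) and 592 ± 141 CPM (KO; SD, n = 4 each), with overlapping groups and a change of 0.15 (SE 0.26).

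Sema4b, a transmembrane class 4 semaphorin (chromosome 7, 80186870 to 80226646), had 281, 111, 181 and 118 CPM in WT RNA and 323, 254, 286 and 505 CPM in KO RNA. Each KO library exceeded its same-numbered WT library, but WT 1 lay above KO 2, so the groups overlapped. Footprints were 182, 90.7, 93 and 50.8 CPM in WT and 169, 204, 136 and 211 CPM in KO, higher in KO in 3 of 4 pairs. The log2 fold changes were 0.99 in RNA (SE 0.35, unadjusted p = 0.018, adjusted p = 1) and 0.86 in footprints (SE 0.32, unadjusted p = 0.0292, adjusted p = 0.999). Without the KO footprint libraries 3 and 4 the footprint value was 0.45 (SE 0.41). Sema5a, a class 5 semaphorin with thrombospondin repeats, had a footprint change of -0.89 (SE 0.38, unadjusted p = 0.0468) and an RNA change of -0.76. Sema6d (chromosome 2, 124089943 to 124667789) was at -0.55 (SE 0.32) in RNA and -0.57 (SE 0.29) in footprints, and Sema7a, a lipid-anchored semaphorin, at -1.07 (SE 0.55) in RNA; neither stood out even before adjustment.

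The 5 ephrin genes tested overlapped between the genotypes in both assays. Efnb3, which was below the filter on low counts and was not tested, had 0.94 to 1.39 CPM in WT RNA and 0.17 to 0.654 CPM in KO RNA, from at most 9 counts in a library. Efnb2, which encodes a transmembrane ephrin (chromosome 8, 8617235 to 8661242), had 1.59, 28.6, 4.31 and 5.33 CPM in WT RNA and 4.77, 4.58, 1.80 and 1.83 CPM in KO RNA. WT 2 alone was high, and the change of -1.64 (SE 0.84) had an unadjusted p of 0.0805. Its translational efficiency value was 0.89 (SE 1.10). Efna3 and Efna4, neighbouring genes on chromosome 3 for lipid-anchored ephrins, had translational efficiency values of -0.52 (SE 0.61) and -0.40 (SE 0.50). Efna4 footprints were 3.71, 4.09, 6.29 and 4.31 CPM in WT and 3.32, 3.35, 3.14 and 5.52 CPM in KO, a spread as wide within as between the groups. Efnb1 was at 0.41 (SE 0.28) in RNA and 0.45 (SE 0.23) in footprints.

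Among receptors, Ephb6 and Epha2 were lowest in KO relative to WT. Ephb6, an Eph receptor whose kinase domain is inactive (chromosome 6, 41603834 to 41620509), had 8.33, 17.8, 7.96 and 14.4 CPM in WT RNA and 2.38, 4.91, 0.327 and 6.86 CPM in KO RNA. Its footprints were 2.47, 3.63, 1.42 and 2.16 CPM in WT and 0.443, 1.02, 0.923 and 1.29 CPM in KO. The groups did not overlap in either assay, although the nearest footprint values, 1.42 in WT 3 and 1.29 in KO 4, were close. The log2 fold changes were -1.74 in RNA (SE 0.69, unadjusted p = 0.0319, adjusted p = 1) and -1.38 in footprints (SE 0.46, unadjusted p = 0.0166, adjusted p = 0.926), with negative signs in every alternative run. Epha2 (chromosome 4, 141301221 to 141329384) had 28.1, 6.45, 17.1 and 11.3 CPM in WT RNA and 8.69, 4.74, 7.67 and 4.88 CPM in KO RNA. It was lower in KO in each of 4 pairs, with overlap between the groups because WT 2 was low. Its changes were -1.27 in RNA (SE 0.46, unadjusted p = 0.0206, adjusted p = 1) and -1.37 in footprints (SE 0.51, unadjusted p = 0.0287, adjusted p = 0.999). Epha3, named after its values were seen, had the highest changes of all members, 1.2 in RNA (SE 1.08) and 2.3 in footprints (SE 1.23), and passed in neither. It had 1, 56, 0 and 6 RNA counts in WT and 40, 28, 33 and 39 in KO. Its footprint counts were 4, 66, 0 and 8 in WT and 59, 59, 69 and 156 in KO. Epha3 met the filter on low counts through the KO libraries, where it was higher, and not through WT alone. Its changes are therefore given as a description only. Epha4, the most abundant EphA receptor gene, had -0.64 in RNA and -0.16 in footprints, and Ephb3, the most abundant EphB gene (chromosome 16, 21204620 to 21223309), had mean RNA levels of 111 ± 32.5 CPM (WT) and 116 ± 30.6 CPM (KO; SD, n = 4 each).

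Unc5c, a netrin receptor of the repulsive Unc5 family (chromosome 3, 141465564 to 141834924), had the smallest unadjusted p in footprints. Its footprints were 0.291, 1.21, 1.22 and 1.08 CPM in WT and 2.44, 1.50, 6.18 and 6.07 CPM in KO. All KO values exceeded all WT values, and KO 3 and KO 4 stood above KO 1 and KO 2. The log2 fold change was 1.90 (SE 0.48, unadjusted p = 0.00407, edgeR adjusted p = 0.64; DESeq2 1.91, SE 0.53, adjusted p = 0.0456). Without the footprint libraries KO 3 and KO 4 it was 1.36 (SE 0.75, edgeR adjusted p = 0.99). Unc5c RNA was below the level for testing, at 27 counts over the WT and 31 over the KO libraries. Unc5a and Unc5b, the abundant members of the family, were at -0.20 and -0.48 in RNA and at -0.18 and -0.67 in footprints.

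Nrp1 and Plxnb2, the most abundant co-receptor and plexin genes, were close between genotypes. Nrp1 (chromosome 8, 128358591 to 128505476) had -0.11 in RNA and 0.22 in footprints, with a translational efficiency value of 0.34 (SE 0.46). Plxnb2 (chromosome 15, 89155546 to 89182018) had mean RNA levels of 1580 ± 402 CPM (WT) and 1710 ± 384 CPM (KO), and footprint levels of 392 ± 57.9 and 405 ± 51.9 CPM (SD, n = 4 each). The Plxnb2 changes of 0.12 in RNA and 0.05 in footprints were smaller than the spread between replicates. Groups that did not overlap were seen for 2 of 47 members in RNA (4.26%, beside 1.27% of all genes) and 3 of 51 in footprints (5.88%, beside 1.9%), namely Ntn3 and Ephb6 in both and Unc5c in footprints. A test of whether the genotype effect differed between the culture sets, added after the data were seen, passed 0 genes in either assay by edgeR, with 133 of 11097 in RNA (1.2%) and 251 of 11472 in footprints (2.19%) at an unadjusted p under 0.05. Robo1 RNA had the values -0.91 in replicates 1 and 2 and 0.27 in replicates 3 and 4 (interaction SE 0.31, edgeR adjusted p = 1).

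**Figure D2:**
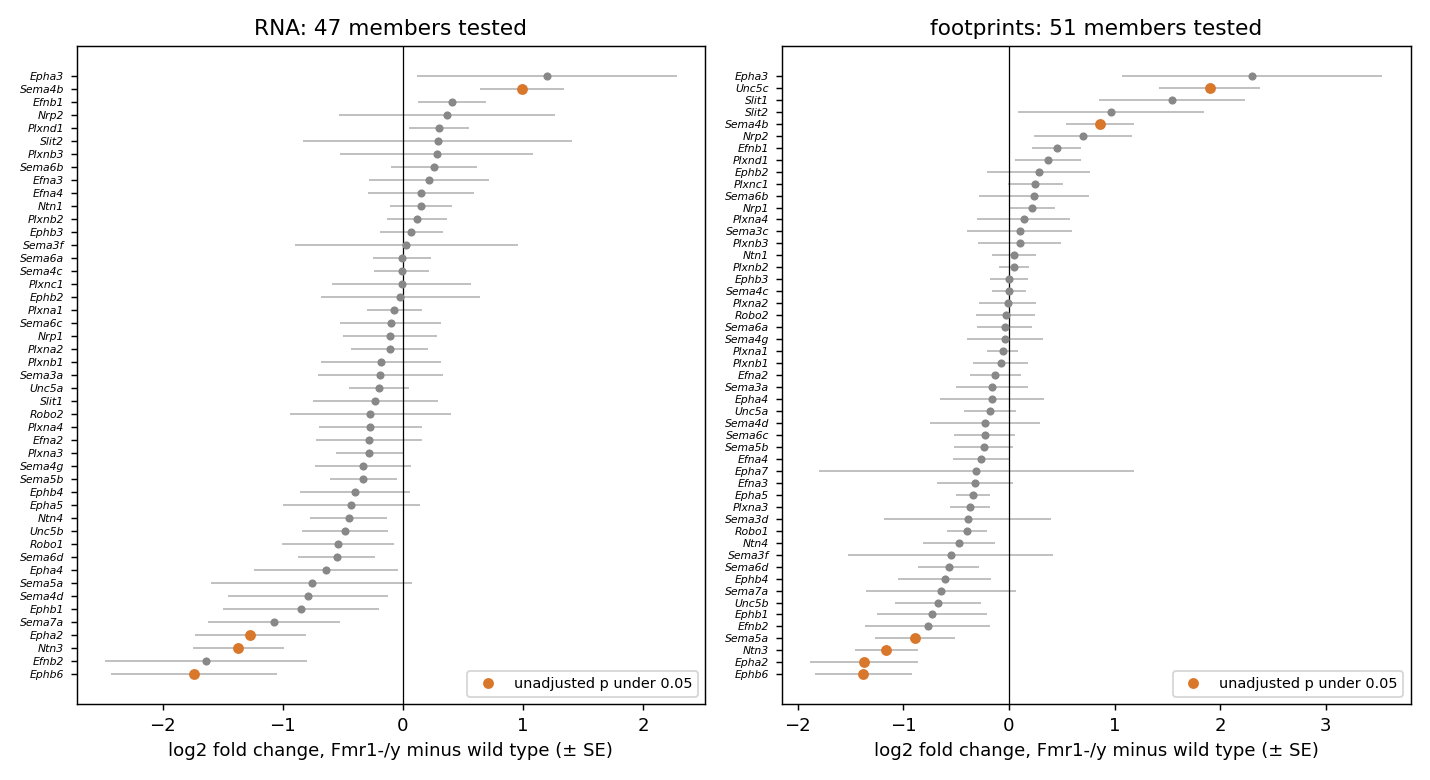
Log2 fold change (KO minus WT, with SE bars) of each member tested in RNA (left, 47 members) and in footprints (right, 51 members), sorted by value; orange points have an unadjusted p under 0.05. Ephb6, Ntn3 and Epha2 sit near the low end of both panels, Epha3 with its wide SE lies at the top and Sema4b near it, and no member passed after adjustment.

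**Figure D3:**
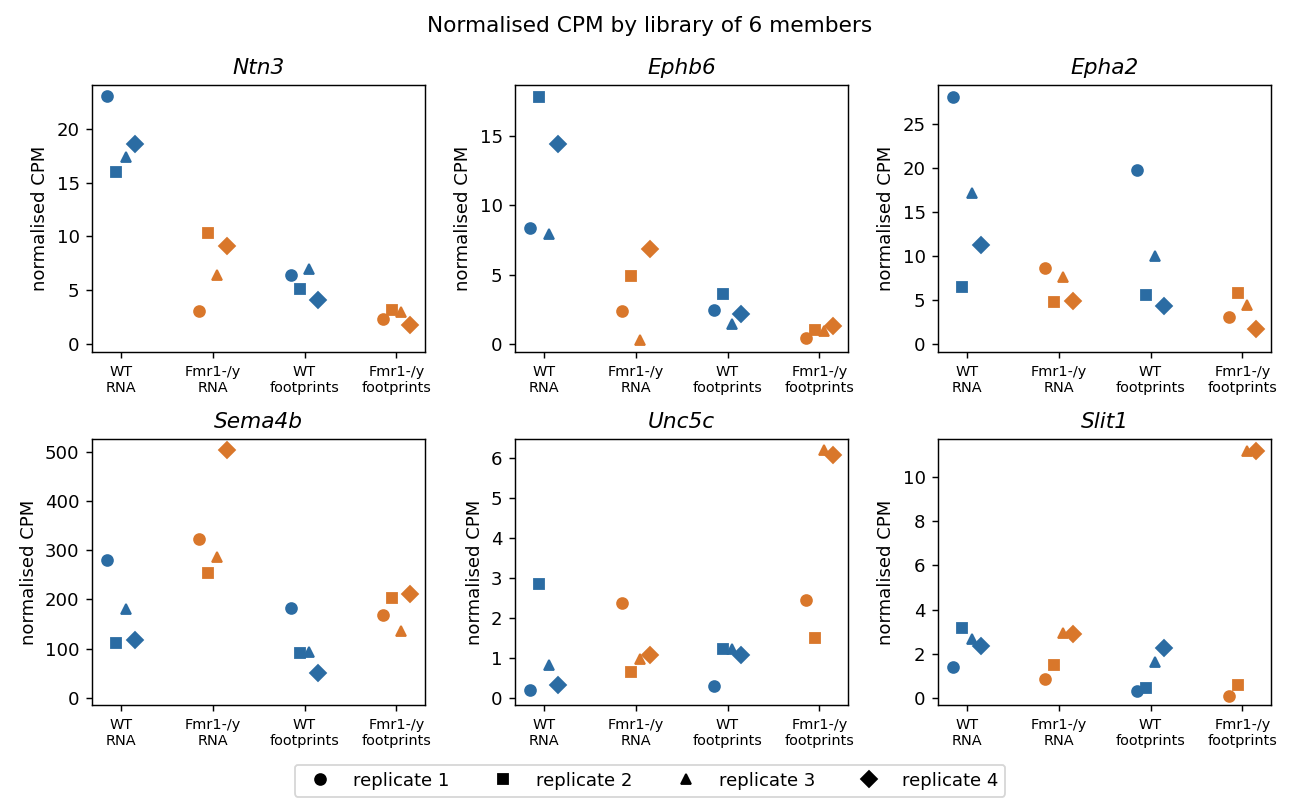
Normalised CPM (linear axis) in every library for Ntn3, Ephb6, Epha2, Sema4b, Unc5c and Slit1; blue points are WT and orange points KO, the marker shape gives the replicate number and each column is a group of 4. The KO points of Ntn3 and Ephb6 lie below all WT points in both assays, and the footprints of Unc5c and Slit1 are highest in KO 3 and KO 4.

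More genes passed between the sets of cultures than between the genotypes. Replicates 3 and 4 were compared with replicates 1 and 2 with genotype as a covariate, a contrast in which culture set and, for footprints, identifier length cannot be told apart. In RNA 13 of 47 members passed (27.7%, beside 25.2% of all genes), 12 of them lower in replicates 3 and 4 (25.5%, beside 13.1%) and 1 higher (2.13%, beside 12.1%). In footprints 12 of 51 passed (23.5%, beside 19% of all genes), 10 lower (19.6%, beside 11.5%) and 2 higher (3.92%, beside 7.56%). Among these calls, Slit2 in RNA and Slit1 in footprints met the filter on low counts only through the set where each was higher. The overall shares were near the background, and the calls were mainly toward lower values in the later-numbered set. Receptors made up most of them, with 9 of 24 receptors and 4 of 23 ligands passing in RNA and 8 of 26 and 4 of 25 in footprints. In 9 members the fall passed in both assays, 75.0% of those lower in RNA and 90.0% of those lower in footprints: the receptors Ephb2, Nrp2, Plxnb1, Plxnb3, Plxnc1, Robo1 and Robo2 and the semaphorins Sema5a and Sema6c. RNA and footprints came from the same lysates, so this overlap is of paired measures. The matching overlap over all genes is not given here, so whether the members exceed it was not tested. These tests count each of 8 libraries as a unit, while the WT and KO cultures of a number deviated together. When the WT and KO counts of a number were summed into 4 units, a fit added after the data were seen, 0 of 47 members passed in RNA (beside 0.532% of all genes) and 0 of 51 in footprints (beside 0.697%). The 13 RNA calls and the 12 footprint calls kept their sign there and were all lost (edgeR adjusted p = 0.0526 to 0.174 in RNA and 0.0511 to 0.0957 in footprints), with 14 and 18 members at an unadjusted p under 0.05. The calls given below are those with each library as a unit. Without the footprint libraries KO 3 and KO 4, 0 of 51 members passed in footprints. The 10 members that fell then had values of -3.27 to -1.18 (edgeR adjusted p = 0.0963 to 0.146). In RNA 6 members passed without WT replicate 3, 6 without WT replicate 4 and 8 without KO replicate 2; in footprints 2, 2 and 6 passed without the same replicates.

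Plxnb3, a plexin that binds Sema5a (X chromosome, 73756556 to 73772510), showed the largest fall in footprints. Its footprints were 101, 40.7, 94.7 and 46.1 CPM in WT 1, WT 2, KO 1 and KO 2, and 7.51, 7.11, 12.3 and 5.06 CPM in WT 3, WT 4, KO 3 and KO 4. The sets did not overlap, and the values of replicates 3 and 4 lay in a narrow band. Such separation, also given for members below, was common over all genes. It was seen in either direction for 31% of 11097 genes in RNA and 31.6% of 11472 in footprints. The Plxnb3 log2 fold change was -3.14 in footprints (SE 0.42, adjusted p = 0.0101) and -2.18 in RNA (SE 0.46, adjusted p = 0.0144), where the levels were 136 ± 79.9 and 30.2 ± 12.9 CPM (n = 4 each). Its ligand gene Sema5a (chromosome 15, 32244813 to 32696341) went the same way, with 71.2, 18.4, 30 and 23.1 CPM in RNA of replicates 1 and 2 and 11.1, 6.42, 5.88 and 3.97 CPM in replicates 3 and 4. WT 1 was far above the rest, and the sets did not overlap. The Sema5a changes were -2.39 in RNA (SE 0.42, adjusted p = 0.00954) and -2.08 in footprints (SE 0.39, adjusted p = 0.0164). The footprint call was lost without WT replicate 3 (adjusted p = 0.0606) or 4 (adjusted p = 0.0509).

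Nrp2, the co-receptor for several class 3 semaphorins (chromosome 1, 62703317 to 62818692), had 27.6, 24.7, 36.3 and 23.7 CPM in RNA of replicates 1 and 2 and 1.99, 5.80, 16.2 and 1.83 CPM in replicates 3 and 4 (-2.23, SE 0.61, adjusted p = 0.0314). KO 3 was the highest of the later-numbered libraries in both assays. The RNA call for Nrp2 was lost without any of WT replicates 1 to 4 or KO replicates 1 and 2 (adjusted p = 0.0527 to 0.08). In footprints Nrp2 was at -1.62 (SE 0.46, adjusted p = 0.0471), and the call was lost without any replicate but KO 3 (adjusted p = 0.0643 to 0.131). Ephb2, an Eph receptor for B ephrins (chromosome 4, 136647536 to 136836326), had 171, 140, 77.3 and 174 CPM in RNA of replicates 1 and 2 and 36.3, 23.5, 76.6 and 39.5 CPM in replicates 3 and 4. KO 1 and KO 3 were nearly equal at the border between the sets. The Ephb2 changes were -1.76 in RNA (SE 0.39, adjusted p = 0.0164) and -1.93 in footprints (SE 0.50, adjusted p = 0.0359), the footprint call being lost without WT replicate 1, 3 or 4 or KO replicate 2 or 4 (adjusted p = 0.0612 to 0.114).

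Robo2, a Slit receptor (chromosome 16, 73891976 to 75447443), had 196, 89.4, 90.8 and 123 CPM in RNA of replicates 1 and 2 and 41.6, 21.2, 37.7 and 35.2 CPM in replicates 3 and 4. The sets did not overlap, and the change was -1.88 (SE 0.32, adjusted p = 0.00915), with -1.19 (SE 0.29, adjusted p = 0.0294) in footprints. The other receptor of the pair, Robo1, changed by -1.26 in RNA and -0.92 in footprints. Plxnc1, the receptor for Sema7a, changed by -1.65 and -1.15, Plxnb1 by -1.24 and -1.43 and Sema6c by -0.98 and -1.59. Epha5 (-1.49), Sema4g (-0.91) and the Robo ligand Slit2 (-2.70) fell in RNA and did not pass in footprints, and Plxna3 (-0.97) fell in footprints alone; the difference between assays was not tested. Slit2 RNA was at most 9.54 CPM in any library. It had 27, 23, 56 and 11 RNA counts in WT 1, WT 2, KO 1 and KO 2, and 0, 10, 6 and 3 in WT 3, WT 4, KO 3 and KO 4. It met the filter on low counts, which is scaled to library size, only through replicates 1 and 2, where it was higher. The RNA fall of Slit2 is therefore given as a description only.

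Few members were higher in replicates 3 and 4. Plxnb2 RNA was 1360, 1120, 1710 and 1170 CPM in replicates 1 and 2 and 1870, 1960, 2010 and 1960 CPM in replicates 3 and 4, a change of 0.53 (SE 0.16, adjusted p = 0.0387) without overlap. This call was lost without any library but KO replicate 1 (adjusted p = 0.0503 to 0.114) and with no filter on low counts (adjusted p = 0.0502). Efnb1 footprints (X chromosome, 99136061 to 99149022) were 5.38, 5.98, 9.45 and 5.51 CPM in replicates 1 and 2 and 11.4, 8.73, 12 and 16.7 CPM in replicates 3 and 4, with KO 1 above WT 4. The Efnb1 change of 0.89 (SE 0.23, adjusted p = 0.0369) was lost without any replicate but WT 2 and KO 1 (adjusted p = 0.0585 to 0.107). Slit1, the third member, is described below with the footprint libraries that carried its rise.

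**Figure D4:**
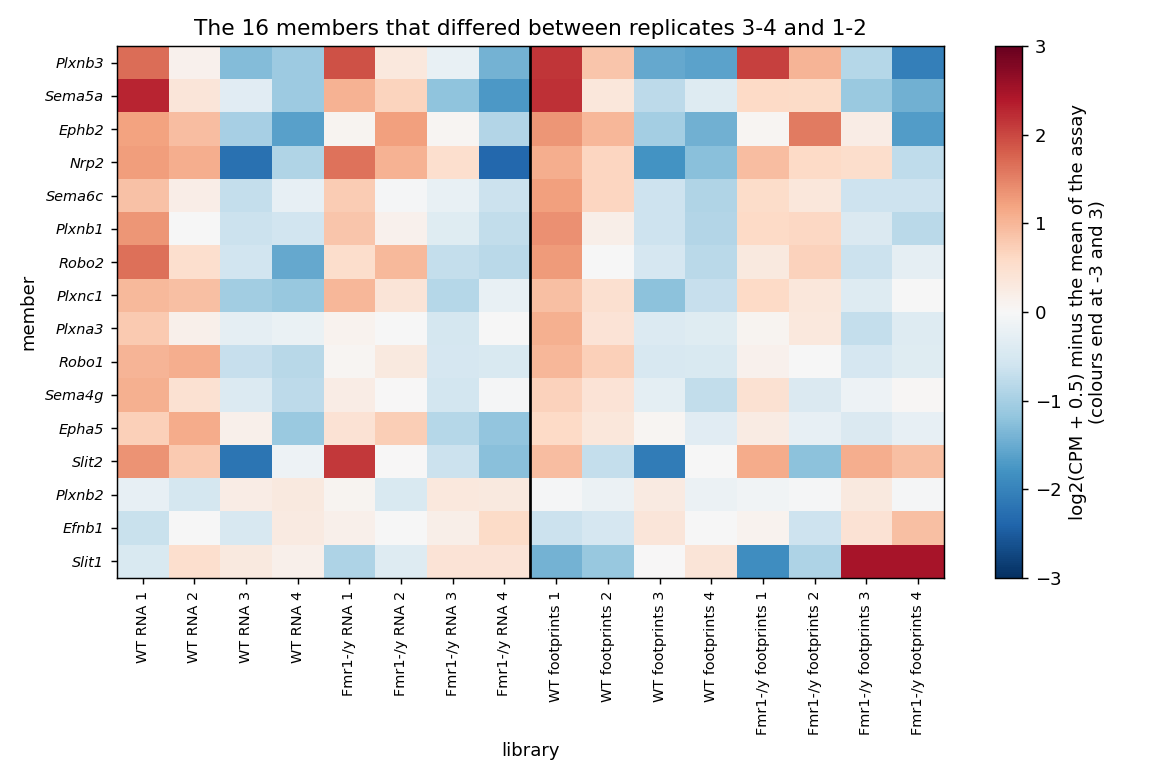
The 16 members that passed between replicates 3 and 4 and replicates 1 and 2 in RNA or footprints with each library as a unit (rows) in each of the 16 libraries (columns); colours give log2(CPM + 0.5) minus the mean of the assay, red higher and blue lower, ending at -3 and 3. Replicates 1 and 2 are mostly red and replicates 3 and 4 mostly blue in the upper rows, and Slit1 in the bottom row is high in the KO 3 and KO 4 footprints.

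Markers of several cell types differed over this split, in both directions. All 7 astrocyte markers tested in RNA had negative values (median -1.30, 5 passing), as had all 8 in footprints (median -1.43, 5 passing). Gfap, the glial intermediate filament gene, fell from 60.5 to 128 CPM in RNA of replicates 1 and 2 to 1.98 to 4.57 CPM in replicates 3 and 4. Of the neural stem and progenitor markers 12 of 13 were negative in RNA (median -0.48, 5 passing) and 11 of 13 in footprints (median -0.62, 6 passing). Neuronal markers gave 4 of 4 negative in RNA (median -0.57, 1 passing) and 5 of 10 in footprints (median 0.09, 2 passing). Oligodendrocyte lineage markers gave 3 of 6 negative in RNA (median -0.24, 2 passing, both lower) and 5 of 7 in footprints (median -1.03, 2 passing, both lower). Foxj1, the 1 ependymal marker tested, was higher in both assays (1.18 in RNA and 0.98 in footprints, both passing). With counts summed within a number, Gfap and Hes5 passed as lower in both assays. Slc1a2, lower, and Stmn2, higher (8.37, SE 0.67), were among those that passed in footprints. Stmn2 had 0, 0, 0 and 0.0599 CPM of footprints in WT 1, WT 2, KO 1 and KO 2. In WT 3, WT 4, KO 3 and KO 4 it had 0.913, 2.26, 12.9 and 12.1 CPM. Stmn2 met the filter on low counts only through replicates 3 and 4, where it was higher, so its call is a description only. The part of these cell types in the members' differences was not tested.

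Promoters of members that fell together are shown so that the start regions can be read beside the values. The 4 are those with the largest falls in footprints among members lower in both assays that have a single promoter in a RefSeq table of build GRCm38.p6, a patch release of mm10, which holds 59 of the 68 members. Each run of 300 bases goes 5′ to 3′ from 250 bases before to 50 bases after the annotated start. Capitals mark the E-box CANNTG, the GC box GGGCGG and the CCAAT box CCAAT on either strand, and matches to the GC box may overlap one another.
Plxnb3, chrX:73756853-73757152, plus strand: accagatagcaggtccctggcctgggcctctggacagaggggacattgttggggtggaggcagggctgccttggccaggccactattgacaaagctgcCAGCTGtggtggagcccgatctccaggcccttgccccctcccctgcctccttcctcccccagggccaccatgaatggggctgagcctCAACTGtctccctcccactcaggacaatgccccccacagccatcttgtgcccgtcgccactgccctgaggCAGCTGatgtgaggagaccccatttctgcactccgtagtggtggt
Sema5a, chr15:32244563-32244862, plus strand: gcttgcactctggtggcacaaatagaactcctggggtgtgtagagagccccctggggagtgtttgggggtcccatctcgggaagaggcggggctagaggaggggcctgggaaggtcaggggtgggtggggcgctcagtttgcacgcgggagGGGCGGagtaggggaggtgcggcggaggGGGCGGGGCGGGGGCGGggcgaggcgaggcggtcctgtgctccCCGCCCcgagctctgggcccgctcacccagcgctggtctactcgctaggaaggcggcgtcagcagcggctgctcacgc
Ephb2, chr4:136835963-136836262, minus strand: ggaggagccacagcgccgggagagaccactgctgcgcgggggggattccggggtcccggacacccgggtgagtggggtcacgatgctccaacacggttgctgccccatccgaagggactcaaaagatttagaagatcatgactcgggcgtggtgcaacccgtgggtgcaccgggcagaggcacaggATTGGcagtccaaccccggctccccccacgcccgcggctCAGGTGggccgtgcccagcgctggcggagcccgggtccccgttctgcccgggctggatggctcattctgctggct
Nrp2, chr1:62703067-62703366, plus strand: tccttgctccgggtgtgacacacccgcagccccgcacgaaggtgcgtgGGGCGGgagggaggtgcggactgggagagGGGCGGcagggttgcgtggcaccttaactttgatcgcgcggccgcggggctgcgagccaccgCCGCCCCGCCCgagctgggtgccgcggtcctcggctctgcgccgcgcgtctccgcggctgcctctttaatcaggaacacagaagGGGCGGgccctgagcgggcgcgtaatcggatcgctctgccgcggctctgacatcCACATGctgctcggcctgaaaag
The 4 runs differed in these letters: Plxnb3 held 3 E-boxes and no GC box, Sema5a 5 GC boxes and no E-box, Ephb2 1 E-box and 1 CCAAT box, and Nrp2 5 GC boxes and 1 E-box. Over all 32851 promoters of this length, 72.3% held an E-box, 35.7% a GC box and 37.4% a CCAAT box. Of the 75 promoters of members, 50.7% held an E-box, 70.7% a GC box and 28.0% a CCAAT box. Of the 12 promoters of the 9 members lower in both assays, 9 held an E-box, 5 a GC box and 2 a CCAAT box. A match is a description of the letters and not evidence of binding.

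A group of members had more footprints in the KO 3 and KO 4 libraries than in any other. This pattern was noticed after the values were seen and is given as a description. For 11 of the 66 members with any footprint, both libraries exceeded every other footprint library (16.7%, beside 5.61% of 15391 genes). They are the ephrins Efnb1 and Efnb3, the EphA receptors Epha3, Epha6 and Epha8, the semaphorins Sema3e and Sema4f, the Robo ligands Slit1 and Slit3 and the netrin receptors Unc5c and Unc5d. A gene counted in both of these libraries and nowhere else enters the base and meets the condition at once. Epha8 was such a member, with 2 counts in each and 0 elsewhere. Efnb3 and Sema4f had 2 and 4 footprint counts over all other libraries. For the other pairs of libraries of a genotype and identifier length the counts were 6 members in WT 1 and WT 2 (9.09%, beside 5.98%), 0 in WT 3 and WT 4 (0%, beside 4.24%) and 1 in KO 1 and KO 2 (1.52%, beside 2.76%).

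Slit1 (chromosome 19, 41597824 to 41747275) had 121 and 122 footprint counts in KO 3 and KO 4 and at most 21 in any other library. Its footprints were thus 11.2 CPM in each of the pair, against 0.0739 to 2.26 CPM elsewhere. Its RNA stayed between 0.852 and 3.15 CPM in all 8 libraries, with overlapping genotypes. Slit1 had 4, 6, 1 and 10 footprint counts in WT 1, WT 2, KO 1 and KO 2. It met the filter on low counts, which is scaled to library size, only through replicates 3 and 4, where it is high. Its call between the culture sets is therefore given as a description only. With KO 3 and KO 4, Slit1 footprints were higher in replicates 3 and 4 (3.78, SE 0.71, adjusted p = 0.0169), and without them the value was 2.35 (SE 0.89, adjusted p = 0.186). The call was also lost without KO replicate 2 (adjusted p = 0.0625). Its translational efficiency had the smallest unadjusted p of any member (1.7, SE 0.87, unadjusted p = 0.0696, adjusted p = 1), and was 0.14 (SE 1.07) without them. Slit3 had 45 and 54 footprint counts in KO 3 and KO 4, at most 7 in any other library, and 0 RNA counts over the 4 KO libraries. Sema4f had 17 and 18, against at most 2 elsewhere, with 1 RNA count in KO. Epha6 had 27 and 18, against at most 4 elsewhere, with 3 RNA counts in KO, and Efnb3 had 28 and 13, against at most 1, with 9 RNA counts. In RNA of the same lysates, KO 3 and KO 4 together held 37 counts of Slit1, 4 of Efnb3, 2 of Epha6, 1 of Sema4f and 0 of Slit3.

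Some markers of neurons moved with this pattern and others did not. Of the 12 neuronal markers 6 were higher in KO 3 and KO 4 than in every other footprint library, namely Neurod2, Stmn2, Rbfox3, Calb2, Syt1 and Snap25. Neurod2 (0.185 and 0.46 CPM) and Rbfox3 (0.923 and 0.828 CPM) were near the floor. Dcx, Tubb3, Neurod1, Map2, Prox1 and Gap43 did not exceed the others, and Prox1 was lowest in the pair (29.4 and 28.9 CPM). Stmn2, a gene for a tubulin-binding protein of growing axons, had 12.9 and 12.1 CPM against at most 2.26 CPM in the others, from 140 and 132 footprint counts, with 0 RNA counts in both cultures. Snap25, a synaptic fusion protein gene, had 15.3 and 16.5 CPM against at most 4.53 CPM, with 1 and 4 RNA counts. The same held for 0 of 14 stem and progenitor markers, 0 of 8 astrocyte markers and 2 of 9 oligodendrocyte lineage markers with a footprint. It also held for 1 of 3 microglial, 1 of 7 endothelial and mural and 1 of 5 fibroblast markers, and for 0 of 3 ependymal markers. These were Tmem119, Pdgfrb and Lum, at 0.277 CPM or less in the pair. Over all genes the share was 5.61%. The summed neuronal markers, which Map2 dominates, were 984 and 1310 CPM in the pair and 1100 to 2090 CPM in the others. Their part in the members' footprints was not tested.

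Footprints of the members were few relative to their RNA. With 4 RNA and 4 footprint libraries of WT in a model of assay, 20 of 47 members passed, beside 42% of all genes. Of them 19 had fewer footprints relative to RNA than the genes tested (40.4%, beside 20.4%) and 1 more (2.13%, beside 21.6%). In KO, whose libraries are separate, 26 of 47 passed, beside 53.6% of all genes, with 24 lower (51.1%, beside 26.9%) and 2 higher (4.26%, beside 26.7%). The shares that passed, 42.6% and 55.3%, were near those of all genes, and the calls were mainly toward fewer footprints. The members' median was -1.09 in WT (8 positive, 39 negative) and -1.01 in KO (10 positive, 37 negative), beside 0.01 and 0 over all genes. Values are relative, since TMM scaling centres the assays on each other, and RNA reads can also come from untranslated ends that ribosomes do not cover, a share that was not measured. With the replicate number as a block, 36 members passed in WT (31 lower, 5 higher) and 36 in KO (31 lower, 5 higher). Without WT replicate 3 or WT replicate 4, 13 passed in WT.

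In 17 members the lower value passed in both genotypes, 89.5% of those in WT and 70.8% of those in KO. They are 5 plexins (Plxna1, Plxna2, Plxnb1, Plxnb2 and Plxnd1), 6 semaphorins (Sema4c, Sema4g, Sema5b, Sema6a, Sema6b and Sema6c), Ephb3, Ephb4, Efnb1, Ntn3, Unc5a and Unc5b. Here too the matching overlap over all genes is not given, so whether the members exceed it was not tested. All 9 plexins were negative in WT (median -1.49, 6 passing), as were all 5 EphB receptors (-1.83, 3 passing), all 4 class 4 (-1.60, 2 passing) and all 4 class 6 semaphorins (-1.66, 3 passing). Both Unc5 receptors passed (median -2.08), while the EphA receptors (median 0.14) and ephrin-A genes (0.47) had 0 passing.

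Sema4g, a transmembrane class 4 semaphorin (chromosome 19, 44988743 to 45003397), had the lowest value. It had 73.1, 47.4, 25.7 and 19.7 CPM in WT RNA and 6.11, 4.92, 2.84 and 1.94 CPM in WT footprints, a log2 difference of -3.20 (SE 0.51, adjusted p = 0.00117), and -3.02 (SE 0.29, adjusted p = 3.62e-05) in KO. Plxnd1, the plexin that binds Sema3e (chromosome 6, 115954811 to 115995339), had 185, 318, 326 and 214 CPM in WT RNA and 22.7, 41, 33.9 and 16.9 CPM in WT footprints (-2.99, SE 0.35, adjusted p = 0.00022; KO -2.95, SE 0.23). Unc5a (chromosome 13, 54945151 to 55006018) had 59.7 ± 12.1 CPM in WT RNA and 8.59 ± 1.17 CPM in WT footprints (n = 4 each; -2.60, SE 0.24, adjusted p = 8.68e-05), and -2.55 in KO. Ephb4, a receptor for Efnb2 (chromosome 5, 137350109 to 137374522), was at -2.56 in WT and -2.79 in KO. RNA and footprint values of these 4 genes, named for their large differences, did not overlap in either genotype. Over all 10863 genes the same held for 40.4% in WT and 50.3% in KO, with footprints the lower for 19.8% and 24.9%.

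Sema3a, the secreted semaphorin that acts through Nrp1 (chromosome 5, 13124822 to 13603485), was the exception. It had 30.3, 96.6, 43.9 and 23.7 CPM in WT RNA and 69.3, 163, 145 and 83.2 CPM in WT footprints, higher in footprints in each culture. The log2 difference was 1.43 in WT (SE 0.48, adjusted p = 0.0378) and 1.43 in KO (SE 0.39, adjusted p = 0.0128). The WT call was lost without WT replicate 1, 3 or 4 (adjusted p = 0.0602 to 0.167) and the KO call without KO replicate 1 or 3 (adjusted p = 0.0626 and 0.0751), at values of 1.25 to 1.39. Per length this made Sema3a the fifth member by footprints (42.4 TPM, 24 to 65) from the 16th place in RNA (21.2 TPM, 7 to 51). Nrp1 was higher in KO at 0.76 (SE 0.28, adjusted p = 0.0467) and at 0.44 in WT. Its KO call was lost without any KO replicate (adjusted p = 0.0566 to 0.124), with no filter on low counts (adjusted p = 0.0548) and without the footprint libraries KO 3 and KO 4 (0.54, adjusted p = 0.249). Without those libraries 20 members passed in KO, 19 lower and 1 higher. WT and KO values were close in each of these members, and the difference between genotypes is the translational efficiency test above.

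**Figure D5:**
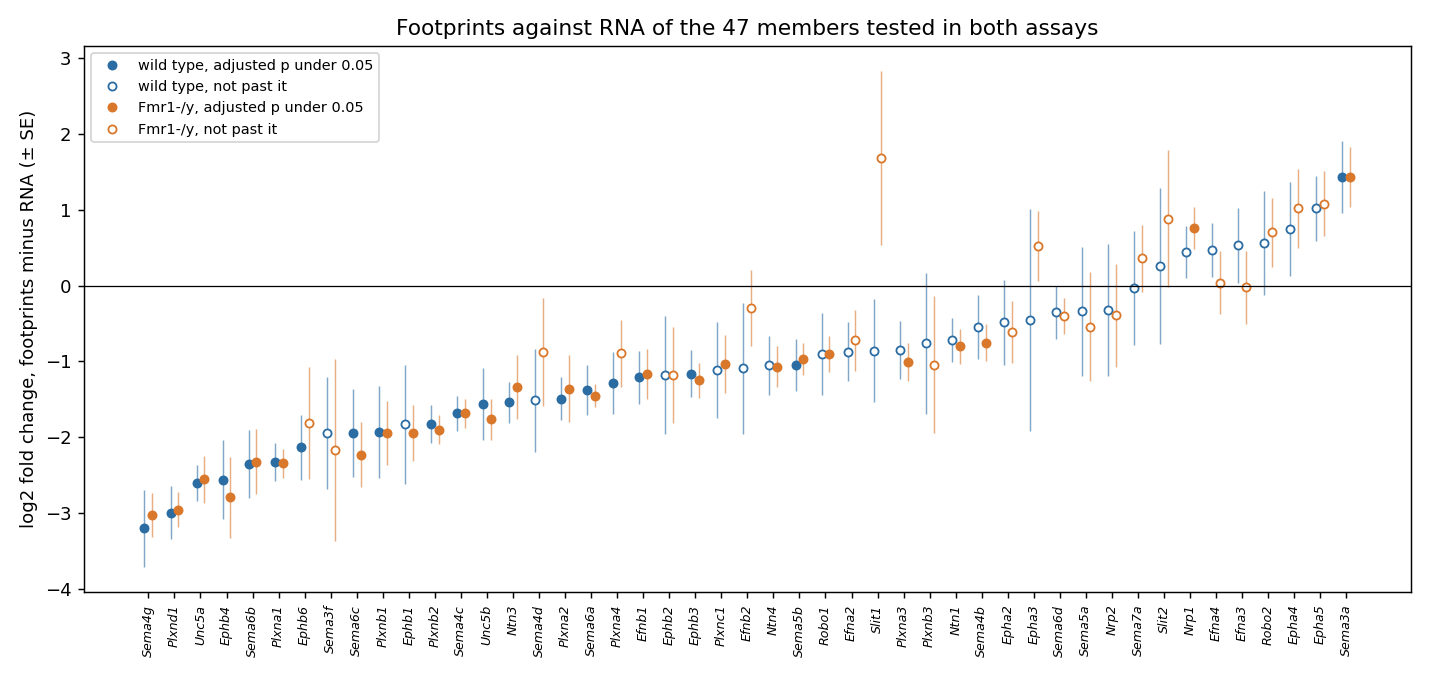
Log2 fold change of footprints against RNA (with SE bars) for the 47 members tested in both assays, sorted by the WT value; blue is WT and orange KO, and filled points passed an adjusted p of 0.05. Most members lie below 0, from Sema4g at -3.20 to Sema3a at 1.43 in WT, and the WT and KO points mostly fall together, Slit1 being the widest apart.

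Other genes of the guidance pathway, taken from a list that did not use the rule, were set beside the members. The list held 99 symbols, and 60 of its 62 symbols for cytoplasmic partners matched a gene in the counts. From the list, 83 genes were tested in RNA and 88 in footprints. Between genotypes 0 passed in either assay, with 4 at an unadjusted p under 0.05 in RNA (Cxcr4, Crmp1, Abl2 and Plxdc2, all lower in KO; 4.82%, beside 1.87% of all genes) and 7 in footprints (6 lower and 1 higher; 7.95%, beside 4.59%). Rnd3, a small GTPase that binds plexins, was at -0.95 (SE 0.25, adjusted p = 0.735) in footprints and -1.19 (SE 0.57) in RNA. Between the culture sets 30 of 83 passed in RNA (36.1%, beside 25.2% of all genes), 27 of them lower, and 22 of 88 in footprints (25%, beside 19%), 17 of them lower. With counts summed within a replicate number, 0 passed in RNA and 2 in footprints, Omg and Cntn1. Among the 30 and the 22, the guidance ligand genes Draxin (-3.56 in RNA, -3.81 in footprints) and Omg (-2.91 and -2.90) and the adhesion receptor genes Cntn1 (-4.43 and -2.73) and Dscaml1 (-6.69 and -4.02) passed in both assays with each library as a unit. Dscaml1 RNA was 20.5 to 91.2 CPM in replicates 1 and 2 and 0 to 1.72 CPM in replicates 3 and 4. It met the filter on low counts in RNA only through replicates 1 and 2, so its RNA fall is a description only.

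Cytoplasmic partners passed in both directions between assays. In WT, 29 of 56 passed between footprints and RNA (51.8%, beside 42% of all genes), 7 higher (beside 21.6%) and 22 lower (beside 20.4%). The higher 7 were the small GTPase genes Rnd3 (2.78), Cdc42 (1.73), Rac1 (1.16) and Rhoa (0.92), the actin-severing factor gene Cfl1 (2.26), the adaptor gene Nck1 (1.35) and the kinase gene Pak2 (0.73). Each of these passed in the same direction in KO. The lower genes included the exchange factor genes Vav2 (-2.30), Kalrn (-2.23), Tiam1 (-1.90) and Trio (-1.88), and the kinase genes Abl1 (-1.91) and Src (-1.71). Of 15 other receptors and co-receptors 6 passed (40%, beside 42%), with the adhesion gene Chl1 higher (1.67) and Ptch1 (-3.19), Dscam (-2.79), Ryk (-2.68), Erbb2 (-1.75) and Boc (-1.24) lower.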

How the data were processed

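RNA and ribosome footprints were measured in 8 cultures, 16 libraries. The authors deposited estimated counts per gene, as RSEM gives them, in whole numbers. The second deposited table holds TPM, rounded by the authors, and was treated as a score for describing levels and for an alternative test. Per the submitters' processing notes the tools included cutadapt 1.7.1, Bowtie2 2.1.0, TopHat2 2.0.9, RSEM 1.2.11, SAMtools 0.0.19 and bedtools 2.22.0, with build mm10. The handling of the molecular identifiers and of strand in counting is not given in the sources used here, so overlapping and antisense genes cannot be separated.

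Of 20436 rows, 27 held a bare number instead of a gene name (0.244% to 0.422% of a library's counts) and were left out. Counts were scaled with TMM and tested with edgeR 4.0.16 quasi-likelihood fits in R 4.3.3. Genes were filtered with filterByExpr (minimum count 10, minimum total 15), and p-values were adjusted by Benjamini-Hochberg over all genes, with a threshold of 0.05. Footprint and translational efficiency fits held a term for identifier length. DESeq2 1.42.0, limma 3.58.1 and left-out replicates were alternatives. The scripts were tested on simulated data.

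Same-numbered cultures deviated together (correlation of deviations 0.524 to 0.635 in RNA and 0.403 to 0.568 in footprints between genotypes), and no 2 libraries were identical. The main fits held no term for the number. Alternatives treated it as pairing, as a block or, between culture sets, by summing the counts of a number. Named genes were members past the threshold between genotypes, the 5 smallest p in each genotype comparison, the most abundant member of each family, and up to 4 largest changes per direction in the other comparisons at a mean of at least 5 CPM; Fmr1 served as a check, and Slit1 between culture sets was added after its value was seen. The members, lists and tests were chosen with earlier results of these data known. Coordinates are from RefSeq, which matched all 68 members.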

Additional observations from a re-analysis of the deposited data

Results flagged for a closer look

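Among 120 groups of 4 libraries (30 named members in 4 groups each), 10 held a library whose gap to its nearest neighbour exceeded Dixon's 95% critical value, where chance gives about 1 in 20 groups. In KO footprints, replicate 4 was high for Efna3 at 6.62 CPM (the others 2.44 to 2.68) and for Efna4 at 5.52 CPM (3.14 to 3.35). Replicate 3 was high there for Ephb4 at 13.1 CPM (4.07 to 4.43) and for Plxnb2 at 482 CPM (369 to 387). In WT RNA, Efnb2 was high in replicate 2 at 28.6 CPM (1.59 to 5.33), Epha4 was high in replicate 1 at 73.3 CPM (17.9 to 23.8) and Sema6d was low in replicate 4 at 174 CPM (396 to 432). In KO RNA, Sema7a was high in replicate 3 at 3.92 CPM (1.53 to 1.87) and Slit2 in replicate 1 at 9.54 CPM (0.458 to 1.80). In WT footprints, Unc5c was low in replicate 1 at 0.291 CPM (1.08 to 1.22).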

How the results depend on the processing

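No named member changed sign under any alternative in a comparison where it passed the main fit. Between genotypes, where no named member passed the main fits, 12 of 21 took the other sign under at least 1 alternative in RNA, 8 of 22 in footprints and 13 of 21 in translational efficiency. Some of these members passed another comparison. The members' median changed sign in replicates 3 and 4 alone in RNA (-0.19 to 0.04) and footprints (-0.13 to 0.14). In translational efficiency (0.08) it did so in replicates 1 and 2 alone (-0.07), without KO replicate 3 (-0.03) and without both KO footprint libraries 3 and 4 (-0.19), and between culture sets in footprints (-0.14) without WT replicate 2 (0.12). Between genotypes 0 members passed in RNA and in translational efficiency under every alternative, and in footprints DESeq2 passed 1. Over all genes in RNA, where 1 passed, DESeq2 gave 20, limma-trend on log2(TPM + 1) 2, and limma-voom, replicates 1 and 2 alone and replicates 3 and 4 alone 0 each, with 0 to 1 when a replicate was left out. In footprints, where 4 passed, DESeq2 gave 82, replicates 1 and 2 alone 0, replicates 3 and 4 alone 2, and leaving out a replicate 0 to 8. With the replicate block, 0 genes passed between genotypes in RNA, footprints or translational efficiency. Between culture sets, leaving out a replicate gave 6 to 13 members and 1123 to 2865 genes in RNA (2796 with all) and 2 to 14 members and 210 to 2205 genes in footprints (2185 with all), where DESeq2 gave 3398 genes. Leaving out both KO footprint libraries 3 and 4, chosen after the data were seen, gave 0 genes between genotypes in footprints, and 0 members and 2 genes between culture sets. The replicate number cannot be a term in the culture set fits, so the pairing was kept by summing the WT and KO counts of a number, added after the data were seen: 0 members and 59 genes passed in RNA, and 0 members and 80 genes in footprints. Between assays in WT, the replicate block gave 36 members and 7502 genes (4563 without it), and leaving out a replicate 13 to 21 members and 2968 to 4357 genes. In KO the block gave 36 members and 7647 genes. The cause of these differences was not tested, beyond the smaller number of samples where libraries were left out. Low counts limited the tests to 47 to 51 of the 68 members.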
